A study of Mus musculus with 25 samples.

Results

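The genes described here are 10 mouse genes of DNA replication: Mcm2, Mcm3, Mcm4, Mcm5, Mcm6, Mcm7, Pcna, Rrm2, Cdc6 and Gins2. They were chosen by symbol, with earlier results of these data known, and each was read from the row that pairs it with an Ensembl identifier in the table of sorted astrocytes. They are 10 of the 43693 genes listed in that table. All 10 were found by the same identifiers in both tables of cultured astrocytes. The table of whole injured cord gave 9 of the 10, and Gins2 was not analysed there.

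Before a cell copies its DNA, each origin of replication has to be licensed. The origin recognition complex and Cdc6, a loading factor, place rings made of Mcm2 to Mcm7 on the DNA during G1 phase. In S phase the rings are switched on as helicases by Cdc45 and the GINS complex, of which Gins2 is a subunit. Pcna, the sliding clamp, then holds polymerases on the template, and Rrm2, the small subunit of ribonucleotide reductase, helps to make deoxynucleotides. Transcription of many of these genes is known to be driven by E2F factors around the G1 to S transition, whereas mitotic genes are switched on later, in G2 and M phase. In the spinal cord, contusion injury is known to make several kinds of cell divide, reactive astrocytes and microglia among them.

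RNA-seq was done on 25 libraries. The 11 sorted libraries held tdTomato-positive cells taken by flow cytometry, after removal of myelin, from the lesion epicentre of mice of genotype GFAP-Cre-/+:R26-tdT-/+, in which a Gfap promoter drives Cre. These mice had a sham operation (laminectomy without contusion) and were sampled at 7 days (3 libraries), or had a moderate contusion of the thoracic cord at 60 kdyn and were sampled at 7 days (3 libraries), 1 month (3 libraries) or 3 months (2 libraries). The 6 tissue libraries came from epicentre cord of C57BL/6 mice 3 months or 1 month after the same contusion, with 3 libraries each. Every sorted and tissue library pooled 3 mice, and the sources used here do not state the ages of the mice at injury. The other 8 libraries came from primary C57BL/6 astrocytes grown from brains of postnatal days 4 to 7. They were transduced with lentivirus to knock down Zeb2os, an RNA antisense to the transcription factor gene Zeb2, or Zeb2 itself, against control lentivirus, with 2 libraries in each of the 4 groups. Cultures were selected with puromycin at 1 µg/ml, from 24 h after transduction in the Zeb2os set and from 48 h in the Zeb2 set. The labels call the knockdown genotypes Zeb2os -/- and Zeb2 -/-, although the protocol is a lentiviral knockdown. Nothing in the labels says that culture libraries of one group came from separate cultures, so p-values there measure the spread between these libraries, which may be technical.

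In the GENCODE annotation of GRCm38, the files' build, the 10 genes lie on 8 chromosomes. Mcm3 (chr1:20802968-20820312, minus strand) and Mcm6 (chr1:128331590-128359664, minus strand) are both on chromosome 1. Mcm5 (chr8:75109569-75128439, plus strand) and Gins2 (chr8:120578633-120589304, minus strand) are both on chromosome 8. The others are Pcna (chr2:132249162-132253314, minus strand), Mcm7 (chr5:138164583-138172422, minus strand), Mcm2 (chr6:88883474-88898780, minus strand), Cdc6 (chr11:98907801-98923940, plus strand), Rrm2 (chr12:24708241-24714146, plus strand) and Mcm4 (chr16:15623897-15637400, minus strand). Gins2 is the least certain of the 10 as a measurement. Of its 4097 exonic bases, 2758 (67.3%) overlap exons of Gse1 on the opposite strand, and the sources used here do not state whether counting used strand, so reads of the 2 genes may not be told apart. For Mcm7, 321 exonic bases (7.25%) overlap Ap4m1 on the opposite strand, and the miRNA genes Mir25, Mir93 and Mir106b lie within it. Pcna has 2 annotated processed pseudogenes, Pcna-ps1 and Pcna-ps2, with which the authors' counting could have shared reads.

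The start regions of these genes are shown because E2F regulation is the feature that most often sets replication genes apart from mitotic ones. RefSeq promoter windows of GRCm38.p6, 250 bases before to 50 bases after a start site, were matched for 8 of the 10 genes, with 2 windows for Mcm7 and so 9 in all. They were searched on both strands for the letters TTTCCCGC, TTTGGCGC, TTTCGCGC and TTTGCCGC, which are forms of the E2F site. At least 1 match was present in 5 of the 8 genes (Mcm3, Mcm5, Mcm6, Mcm7 and Cdc6), and there was none in Mcm2, Pcna or Rrm2. That is 55.6% of the 9 windows, against 4.0% of the 25 windows of 24 mitotic genes and 2.26% of all 32851 windows. The windows of the 4 genes with more than 1 match follow, on each gene's own strand, with the matched letters in capitals.
Mcm3 (chr1:20820263-20820562): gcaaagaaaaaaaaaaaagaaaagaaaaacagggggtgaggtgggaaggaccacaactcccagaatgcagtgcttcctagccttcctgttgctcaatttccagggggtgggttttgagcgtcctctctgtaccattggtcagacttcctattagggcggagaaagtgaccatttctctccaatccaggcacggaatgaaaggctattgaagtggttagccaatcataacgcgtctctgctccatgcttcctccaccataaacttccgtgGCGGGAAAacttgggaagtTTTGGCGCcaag
Mcm5 (chr8:75109259-75109558): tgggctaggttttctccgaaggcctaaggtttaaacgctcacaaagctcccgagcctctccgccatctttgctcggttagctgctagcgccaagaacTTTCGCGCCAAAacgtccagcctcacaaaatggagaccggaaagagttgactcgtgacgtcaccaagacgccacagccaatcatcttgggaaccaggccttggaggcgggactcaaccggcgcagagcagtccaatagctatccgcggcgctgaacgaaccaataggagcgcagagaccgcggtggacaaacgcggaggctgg
Mcm6 (chr1:128359656-128359955): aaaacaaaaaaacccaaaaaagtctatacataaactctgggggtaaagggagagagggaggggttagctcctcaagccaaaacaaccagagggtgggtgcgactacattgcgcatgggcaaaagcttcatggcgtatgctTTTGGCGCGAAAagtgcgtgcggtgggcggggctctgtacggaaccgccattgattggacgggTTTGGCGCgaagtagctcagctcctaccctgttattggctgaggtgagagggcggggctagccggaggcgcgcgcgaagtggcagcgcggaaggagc
Mcm7 (chr5:138171834-138172133): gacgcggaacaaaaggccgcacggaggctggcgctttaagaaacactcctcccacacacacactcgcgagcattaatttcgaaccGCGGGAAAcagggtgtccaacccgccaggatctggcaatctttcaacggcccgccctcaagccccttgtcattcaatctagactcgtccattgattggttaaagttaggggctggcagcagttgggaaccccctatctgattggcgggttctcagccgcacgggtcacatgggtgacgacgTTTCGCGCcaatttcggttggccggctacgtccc

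Counted from the start site as position 0, the matches in Mcm3 begin at 19 and 38, those in Mcm5 at -153 and -149, those in Mcm6 at -110, -106 and -47, and those in Mcm7 at -165 and 16. The pair in Mcm5 overlap each other, as do the first pair in Mcm6. The single match of Cdc6 begins at -138. Mitotic promoters were told apart by another motif. The letters TTTGAA and TTCGAA, forms of the cell cycle homology region found in genes of G2 and M phase, were in 80.0% of the mitotic windows, 22.2% of the windows of the replication genes and 19.2% of all windows. CCAAT, a motif common to both kinds of gene, was in 88.9% of the windows of the replication genes, 84.0% of the mitotic windows and 37.4% of all. These are matches of letters, not measured binding sites.

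The sorted libraries held 15712423 to 50211071 counts, the tissue libraries 15423131 to 27138885 counts, the Zeb2os set 45627745 to 158099842 counts and the Zeb2 set 29027058 to 65434619 counts. Levels are given as CPM, a gene's counts per M (mega) counts of its library after TMM scaling. Sorted cells did not carry astrocyte RNA alone. Summed over 8 markers each, astrocyte RNA ranged over 3082 to 4293 CPM in sham libraries, 2278 to 2724 CPM in those of 7 days, 1238 to 1312 CPM in those of 1 month and 1014 to 1211 CPM in those of 3 months. Microglia and macrophage RNA ranged over 296 to 1143, 3631 to 5779, 2691 to 4205 and 7237 to 9234 CPM in the same order of times. Oligodendrocyte precursor RNA, summed over 6 markers, was 5083 to 8268 CPM in the sorted libraries and 510 to 662 CPM in whole cord. Astrocyte RNA went the other way. Over its 8 markers whole cord had 12400 to 13720 CPM at 1 month and 10400 to 10710 CPM at 3 months, above every sorted library. Sorted cells and whole cord were normalized separately. Of the knocked-down genes, Zeb2 had 23.2 and 16.2 CPM in libraries labelled Zeb2 knockdown, against 147 and 134 CPM in their controls. Zeb2os had 3.14 and 4.32 CPM in libraries labelled Zeb2os knockdown, against 5.82 and 3.80 CPM in their controls, so the groups overlapped and the target gene did not check the label of that set.

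Corrected for exon length, Pcna was the most abundant of the 10 transcripts in all 10 groups, and Cdc6 and Gins2 were the least abundant wherever both were measured. In sorted cells Pcna had 40.6 ± 15.1 RPKM (CPM divided by kilobases of exon; SD, n = 3) in sham, 67.5 ± 5.36 at 7 days, 78.7 ± 10.4 at 1 month (n = 3 each) and 65.6 ± 0.198 at 3 months (n = 2). Mcm2 to Mcm7 assemble as 1 copy each in the ring, but their transcripts were not equal. The highest mean RPKM of the 6 was 4.04 times the lowest in sham, 2.39 times at 7 days, 2.25 times at 1 month and 2.95 times at 3 months. In sham Mcm4 stood apart at the top of the 6 with 16.9 ± 2.50 RPKM, above Mcm7 at 8.61 ± 1.81 RPKM, and Mcm2 was lowest with 4.20 ± 0.765 RPKM (n = 3 each). At 7 days Mcm6 with 23.6 ± 3.94 RPKM and Mcm4 with 22.6 ± 2.28 RPKM led the 6 and lay within each other's spread (n = 3 each). Mcm5, Mcm3 and Mcm7 followed at 17.8 ± 1.87, 17.6 ± 2.85 and 17.2 ± 2.01 RPKM and could not be ordered. Rrm2 changed place most, holding rank 6 of the 10 in sham, rank 2 at 7 days, rank 3 at 1 month and rank 7 at 3 months.

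The first question in sorted cells was how far replication genes were raised after contusion. Of the 10 genes, 9 were higher at 7 days than in sham, against 9.87% of the 24286 genes tested, and 9 were higher at 1 month, against 6.23% of the same genes (edgeR's quasi-likelihood test with Benjamini-Hochberg adjustment over all genes, adjusted p under 0.05). At 3 months 1 of the 10 was higher than in sham, against 6.78% of all genes. The exceptions were Mcm4 at 7 days and Gins2 at 1 month. The median log2 change of the 10 was 1.42 at 7 days, 1.28 at 1 month and 0.47 at 3 months, against -0.06, -0.02 and -0.10 over all genes tested. These 3 comparisons share their sham libraries, all taken 7 days after surgery. There was no sham at 1 month or 3 months, so injury and time after surgery cannot be told apart there. In every one of the 10 genes all 3 libraries of 7 days, and all 3 of 1 month, lay above all 3 sham libraries, as did 18.9% of all genes tested at 7 days and 14.7% at 1 month.

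**Figure D1:**
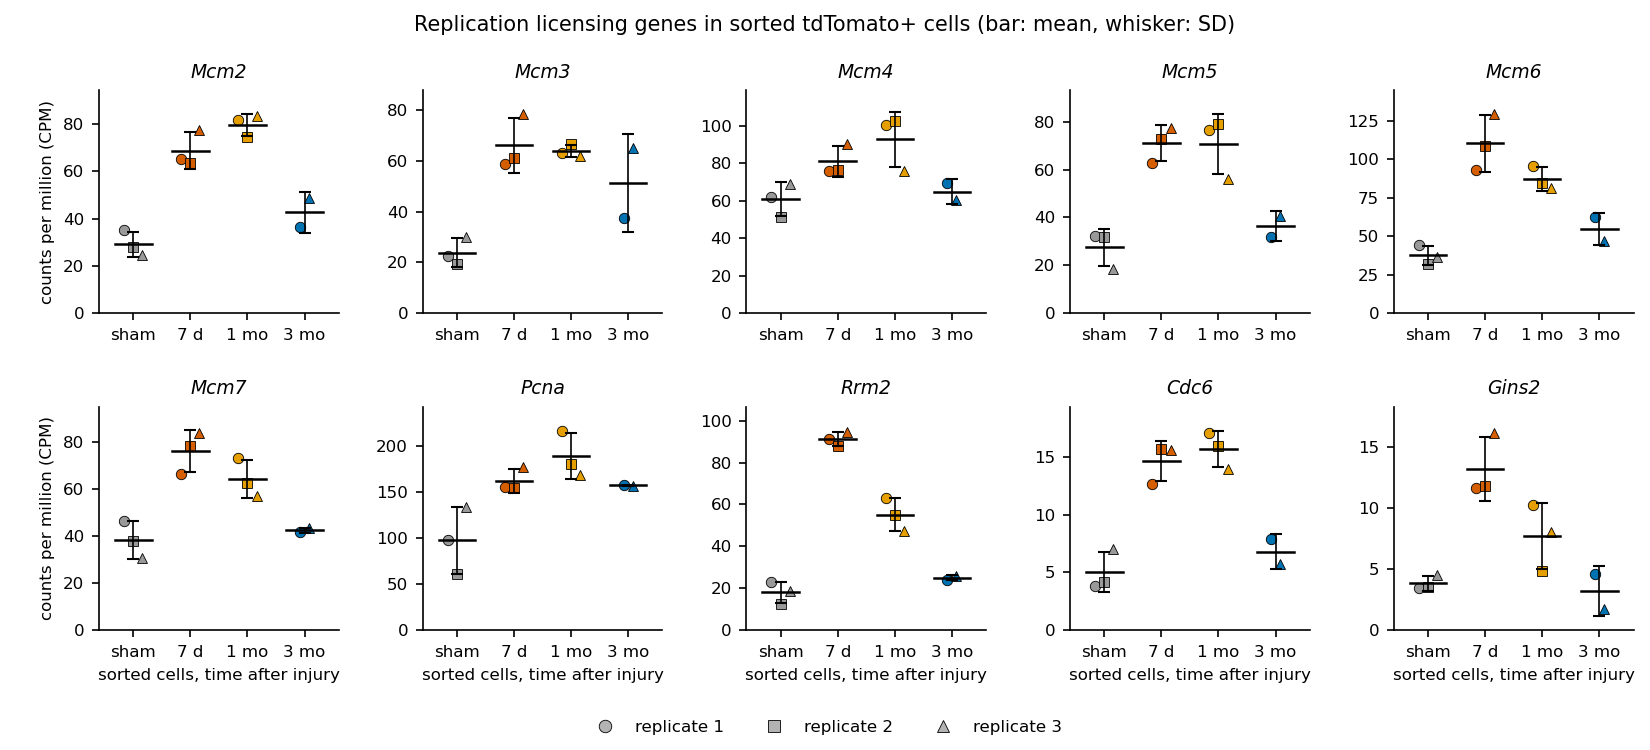
Level of each gene in CPM in the 11 sorted libraries, by time after injury with sham at the left. Points are libraries, bars group means and whiskers SD; each panel has its own axis from 0. All libraries of 7 days and 1 month lie above sham in the 10 panels, and the 2 libraries of 3 months lie below those of 1 month in 9 panels, Mcm3 being the exception.

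Mcm2, Mcm3 and Mcm5 form the part of the ring that is usually assigned to regulation and to the gate through which DNA enters. Mcm2, which also carries histones past the fork, had 35.1, 27.8 and 24.7 CPM in sham, 65.3, 63.4 and 77.7 CPM at 7 days, 81.6, 74.5 and 83.2 CPM at 1 month and 36.5 and 48.7 CPM at 3 months. Its 3-month libraries were above sham and below both earlier times with no overlap. The log2 change from sham was 1.24 ± 0.18 (SE; adjusted p = 0.00022) at 7 days, 1.45 ± 0.18 (adjusted p = 0.000114) at 1 month and 0.54 ± 0.20 (adjusted p = 0.0973) at 3 months. Mcm3 had 22.4, 19.2 and 30.1 CPM in sham, 58.9, 61.1 and 78.4 CPM at 7 days, 63.3, 66.6 and 61.9 CPM at 1 month and 37.5 and 64.9 CPM at 3 months. It was the 1 gene of the 10 called at 3 months, where its libraries differed most from each other. Its log2 change was 1.47 ± 0.23 at 7 days (adjusted p = 0.000288), 1.42 ± 0.23 at 1 month (adjusted p = 0.000635) and 1.10 ± 0.25 at 3 months (adjusted p = 0.00761), and the 3-month call was lost without replicate 3 of 3 months (log2 change 0.65, adjusted p = 0.255) and when the 2 groups were fitted by themselves (adjusted p = 0.105). Mcm5 had 32.3, 31.8 and 18.6 CPM in sham, 62.8, 72.8 and 77.4 CPM at 7 days, 76.5, 79.1 and 56.2 CPM at 1 month and 31.9 and 40.8 CPM at 3 months. Its 3-month range reached into that of sham. Mcm5 changed on the log2 scale by 1.36 ± 0.22 at 7 days (adjusted p = 0.000476) and by 1.35 ± 0.22 at 1 month (adjusted p = 0.000815), against 0.39 ± 0.24 at 3 months (adjusted p = 0.332).

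Mcm4, Mcm6 and Mcm7 can unwind DNA by themselves as a subcomplex in vitro and are often described as the catalytic core. Mcm4 moved least of the 6. It had 61.9, 51.3 and 69.2 CPM in sham, 76.0, 76.6 and 90.4 CPM at 7 days, 100.2, 102.3 and 75.9 CPM at 1 month and 69.6 and 60.2 CPM at 3 months. The log2 change was 0.42 ± 0.17 at 7 days (adjusted p = 0.121), 0.61 ± 0.17 at 1 month (adjusted p = 0.0311) and 0.10 ± 0.19 at 3 months (adjusted p = 0.818). The 1-month call was lost when the 2 groups were fitted by themselves (adjusted p = 0.0659) and without sham replicate 2, 1-month replicate 1 or 1-month replicate 2 (adjusted p = 0.0894, 0.118 and 0.125). Mcm6 moved most of the 6 at 7 days. It had 44.1, 31.9 and 36.6 CPM in sham, 92.7, 108.7 and 129.3 CPM at 7 days, 95.8, 84.3 and 81.4 CPM at 1 month and 62.2 and 47.1 CPM at 3 months. Its log2 change was 1.55 ± 0.19 at 7 days (adjusted p = 3.98e-05), 1.22 ± 0.19 at 1 month (adjusted p = 0.000465) and 0.54 ± 0.20 at 3 months (adjusted p = 0.101). Mcm7 had 46.4, 37.6 and 30.4 CPM in sham, 66.3, 78.2 and 83.7 CPM at 7 days, 73.0, 62.5 and 56.8 CPM at 1 month and 41.6 and 43.2 CPM at 3 months. Its 3-month libraries lay inside the range of sham. On the log2 scale the change was 1.00 ± 0.19 at 7 days (adjusted p = 0.00127), 0.75 ± 0.18 at 1 month (adjusted p = 0.0136; 0.0746 without 1-month replicate 1) and 0.15 ± 0.21 at 3 months (adjusted p = 0.704).

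Cdc6, the loader of the ring, and Gins2, part of the complex that turns it on, had far fewer reads than the ring subunits. Cdc6 had 3.84, 4.16 and 7.02 CPM in sham, 12.6, 15.7 and 15.6 CPM at 7 days, 17.1, 15.9 and 14.0 CPM at 1 month and 7.88 and 5.71 CPM at 3 months. The libraries of 7 days and 1 month formed one range, clear of sham and of 3 months. Its log2 change was 1.56 ± 0.32 at 7 days (adjusted p = 0.00261), 1.65 ± 0.32 at 1 month (adjusted p = 0.00278) and 0.45 ± 0.35 at 3 months (adjusted p = 0.445). Gins2 had 3.46, 3.49 and 4.48 CPM in sham, 11.6, 11.8 and 16.2 CPM at 7 days, 10.2, 4.82 and 8.03 CPM at 1 month and 4.62 and 1.71 CPM at 3 months. It was above sham at 7 days and close to it in replicate 2 of 1 month. The log2 change was 1.79 ± 0.44 at 7 days (adjusted p = 0.00884), 1.01 ± 0.43 at 1 month (adjusted p = 0.157) and -0.25 ± 0.49 at 3 months (adjusted p = 0.807).

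Pcna and Rrm2 serve DNA synthesis itself. Rrm2, which limits deoxynucleotide supply, had 22.7, 12.6 and 18.6 CPM in sham, 91.4, 87.9 and 94.5 CPM at 7 days, 63.1, 54.97 and 47.5 CPM at 1 month and 24.1 and 26.0 CPM at 3 months. The 4 groups did not overlap, and the peak was at 7 days. Its log2 change was 2.35 ± 0.21 at 7 days (adjusted p = 3.12e-06), a 5.09-fold difference in mean CPM and the largest of the 10, then 1.62 ± 0.21 at 1 month (adjusted p = 0.00013) and 0.48 ± 0.23 at 3 months (adjusted p = 0.204). Pcna, which also serves DNA repair, had 97.8, 61.1 and 133.6 CPM in sham, 155.3, 154.0 and 176.9 CPM at 7 days, 216.9, 180.5 and 169.1 CPM at 1 month and 157.8 and 157.1 CPM at 3 months. Sham was its most scattered group, and its 3-month libraries stayed above it. The log2 change was 0.73 ± 0.22 at 7 days (adjusted p = 0.0296), 0.95 ± 0.22 at 1 month (adjusted p = 0.00981) and 0.69 ± 0.24 at 3 months (adjusted p = 0.0825). The 7-day call of Pcna was lost without sham replicate 2 and without any one of the 3 libraries of 7 days (adjusted p = 0.0597, 0.0615, 0.0698 and 0.0957) and when the 2 groups were fitted by themselves (adjusted p = 0.0931), and the 1-month call was lost without 1-month replicate 1 (adjusted p = 0.0522).

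At 3 months the count of called genes depended on the sham libraries. Without sham replicate 1 it was 4 of 10, with Mcm2, Mcm6 and Rrm2 joining Mcm3 (adjusted p = 0.0246, 0.0342 and 0.0422), and without sham replicate 3 it was 2, with Pcna added (adjusted p = 0.00674). DESeq2 called 4. Markers of other cell types also differed from sham. At 7 days 7 of 8 microglia and macrophage markers, 5 of 5 endothelial markers and 4 of 6 fibroblast and mural markers were higher than in sham, against 9.87% of all genes. Of the 8 astrocyte markers 6 were lower and 1, Gfap, was higher, and of the 6 oligodendrocyte precursor markers 0 were higher and 1 was lower. Lower too were 5 of 5 ependymal markers and 2 of 4 neutrophil markers tested, against 8.41% of all genes. Of 5 neuron markers 1 was higher and 2 were lower, and of 5 Schwann cell markers 1 was higher. None of 5 oligodendrocyte markers or 2 lymphocyte markers tested was called. In these bulk libraries more dividing cells of a type and more RNA of a gene per cell cannot be told apart, and the part of the other cell types in these changes was not tested. Microglia and macrophage RNA was highest at 3 months, when the summed level of the 10 genes was 474 and 495 CPM, against 654 to 798 CPM at 1 month.

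The rest of the replication machinery was described from lists of related genes. Over all genes tested 9.87% were higher than in sham at 7 days and 6.23% at 1 month. Of 11 origin recognition and licensing genes, 2 were higher at 7 days and the same 2 at 1 month: Gmnn, the inhibitor of re-licensing, with log2 changes of 2.98 ± 0.68 and 2.28 ± 0.67, and Cdt1, the partner of Cdc6 in loading, with 1.12 ± 0.30 and 1.24 ± 0.30. The list's median was 0.42 and 0.23, well under that of the 10 genes. Of 16 helicase activation and firing genes, 9 and 7 were higher at 7 days and 1 month (medians 1.09 and 0.81), led at both times by Clspn, which carries the replication checkpoint signal, at 2.41 ± 0.36 and 2.47 ± 0.37, and by Ticrr, a factor for Cdc45 loading, at 2.39 ± 0.35 and 2.01 ± 0.34. Of 20 genes of polymerases, clamp loader and Okazaki fragment processing, 9 and 6 were higher (medians 0.75 and 0.61), among them Pole2, a subunit of DNA polymerase epsilon, at 2.57 ± 0.57 and 2.11 ± 0.56, and Rfc5, a subunit of the complex that loads Pcna, at 1.44 ± 0.34 and 1.24 ± 0.33. Of 10 nucleotide supply genes, 6 were higher at 7 days, led by Tk1, thymidine kinase, at 2.14 ± 0.39, and 1 was higher at 1 month, Rrm1, the large subunit that pairs with Rrm2, at 0.85 ± 0.16. The 1 of 10 at 1 month was near the share of all genes. The median of that list was 1.048 and 0.65. Of 7 genes that copy chromatin, 5 were higher at each time (medians 1.282 and 1.199), among them Chaf1b, a histone chaperone subunit, at 1.84 ± 0.38 and 1.92 ± 0.38.

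Both sides of the G1 to S switch moved. Of 15 drivers, 10 were higher and 1 was lower at 7 days and 6 were higher at 1 month, and of 15 brakes, 8 were higher and 1 was lower at 7 days and 7 were higher and 1 was lower at 1 month. Over all genes tested 9.87% were higher and 8.41% lower at 7 days, and 6.23% were higher and 5.83% lower at 1 month. Among drivers, Ccna2 (cyclin A2) changed by 2.66 ± 0.28 and 1.74 ± 0.27 on the log2 scale, and E2f1, an activating E2F, by 1.79 ± 0.35 and 1.45 ± 0.35. The driver that fell at 7 days was Ccnd2 (cyclin D2), at -1.14 ± 0.21, named after its value was seen. Among brakes, E2f8, a repressor of E2F targets, rose by 2.43 ± 0.31 and 1.91 ± 0.31, and Btg2, an antiproliferative gene induced by stress, changed by -2.32 ± 0.39 and -1.25 ± 0.37, with libraries of 1 month and sham overlapping, the second value being named after it was seen. Cdkn2a, which encodes the inhibitors p16 and p19ARF, had 3.78, 5.67 and 7.53 CPM at 7 days and 6.55, 6.93 and 8.43 CPM at 1 month, against 1.22, 0 and 0 CPM in sham. At 3 months against sham, 3 of 15 brakes and 0 of 15 drivers were higher (medians 0.20 and 0.12), where 6.78% of all genes were higher. In the S phase lists, 2 of 20 polymerase genes (Dna2 and Fen1), 1 of 16 firing genes (Timeless) and 1 of 10 nucleotide supply genes (Samhd1) were higher. Their log2 changes were 1.31 ± 0.26, 0.91 ± 0.24, 0.81 ± 0.24 and 0.87 ± 0.21. None of the 11 origin genes or 7 chromatin genes was higher. The 3 brakes were Cdkn2a, with 5.42 and 13.7 CPM at 3 months, E2f4, an E2F that represses together with pocket proteins, at 0.90 ± 0.22, and Cdkn1a. Cdkn1a, the inhibitor p21, had 152.1 and 150.9 CPM, against 86.3, 43.5 and 69.1 CPM in sham (log2 change 1.19 ± 0.23, adjusted p = 0.00241).

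Replication genes and mitotic genes were then followed side by side from 7 days to 1 month. Of the 10 replication genes, 0 were called between 1 month and 7 days, against 2.61% of all genes called in either direction. The median log2 change was -0.03, against 0.00 over all genes tested. All 27 mitotic genes were higher at 7 days than in sham (median 2.58), against 9.87% of all genes. Of these 27, 10 were lower at 1 month than at 7 days, against 1.09% of all genes lower, and the list's median was -0.96 (27 of 27 below 0). The edgeR fit gave an unadjusted p under 0.05 for 1 of the 10 replication genes, 25 of the 27 mitotic genes and 3696 of all 24286 genes. DESeq2 called 1 of the 10, 16 of the 27 and 1511 of all genes. The mitotic count rested on the full set of libraries: it was 26 with the 2 groups fitted by themselves and 0 to 3 when any one library of either time was left out, whereas the median stayed between -0.98 and -0.92. The difference between the lists was not itself tested. Of cell type markers, 3 of 8 astrocyte, 2 of 5 endothelial and 1 of 6 oligodendrocyte precursor markers were lower at 1 month than at 7 days. Higher were 2 of 5 neuron and 1 of 6 precursor markers, against 1.52% of all genes. Fibroblast and mural RNA was 1273 to 1314 CPM at 1 month and 2313 to 2635 CPM at 7 days, with none of its 6 markers called. The part of these cell types was not tested.

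Between 1 month and 7 days, Mcm2 changed by 0.21 ± 0.18 on the log2 scale, Mcm4 by 0.20 ± 0.17, Pcna by 0.22 ± 0.22 and Cdc6 by 0.10 ± 0.31. Mcm3 changed by -0.05 ± 0.22, Mcm5 by -0.01 ± 0.22, Mcm6 by -0.34 ± 0.18 and Mcm7 by -0.25 ± 0.18. In all 8 of these genes the libraries of the 2 times overlapped. The exceptions were Rrm2 and Gins2, whose 1-month libraries were all below those of 7 days, as in 17.0% of all genes tested. Rrm2 changed by -0.73 ± 0.20 (adjusted p = 0.0747; it was called by DESeq2, adjusted p = 0.0168, without a filter on low counts, adjusted p = 0.0219, and with the 2 groups fitted by themselves, adjusted p = 0.0016), and Gins2 by -0.78 ± 0.43 (adjusted p = 0.414). Set beside them, Ccnb2 (cyclin B2) averaged 18.7 ± 1.59 CPM at 1 month and 63.3 ± 7.86 CPM at 7 days (SD, n = 3 each), with a log2 change of -1.76 ± 0.43 and an adjusted p of 0.0396 in edgeR's test. Ccnb1 (cyclin B1) averaged 38.4 ± 1.14 and 107 ± 7.02 CPM, and Cenpa, the centromeric histone, 22.5 ± 5.67 and 57.4 ± 8.36 CPM at 1 month and 7 days. Dbf4, the activator of the kinase that fires licensed origins, was the 1 gene called in the other replication lists, with 12.2 ± 4.02 CPM at 1 month and 31.7 ± 1.74 CPM at 7 days (log2 change -1.38 ± 0.31, adjusted p = 0.0295 by edgeR, n = 3 each).

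**Figure D2:**
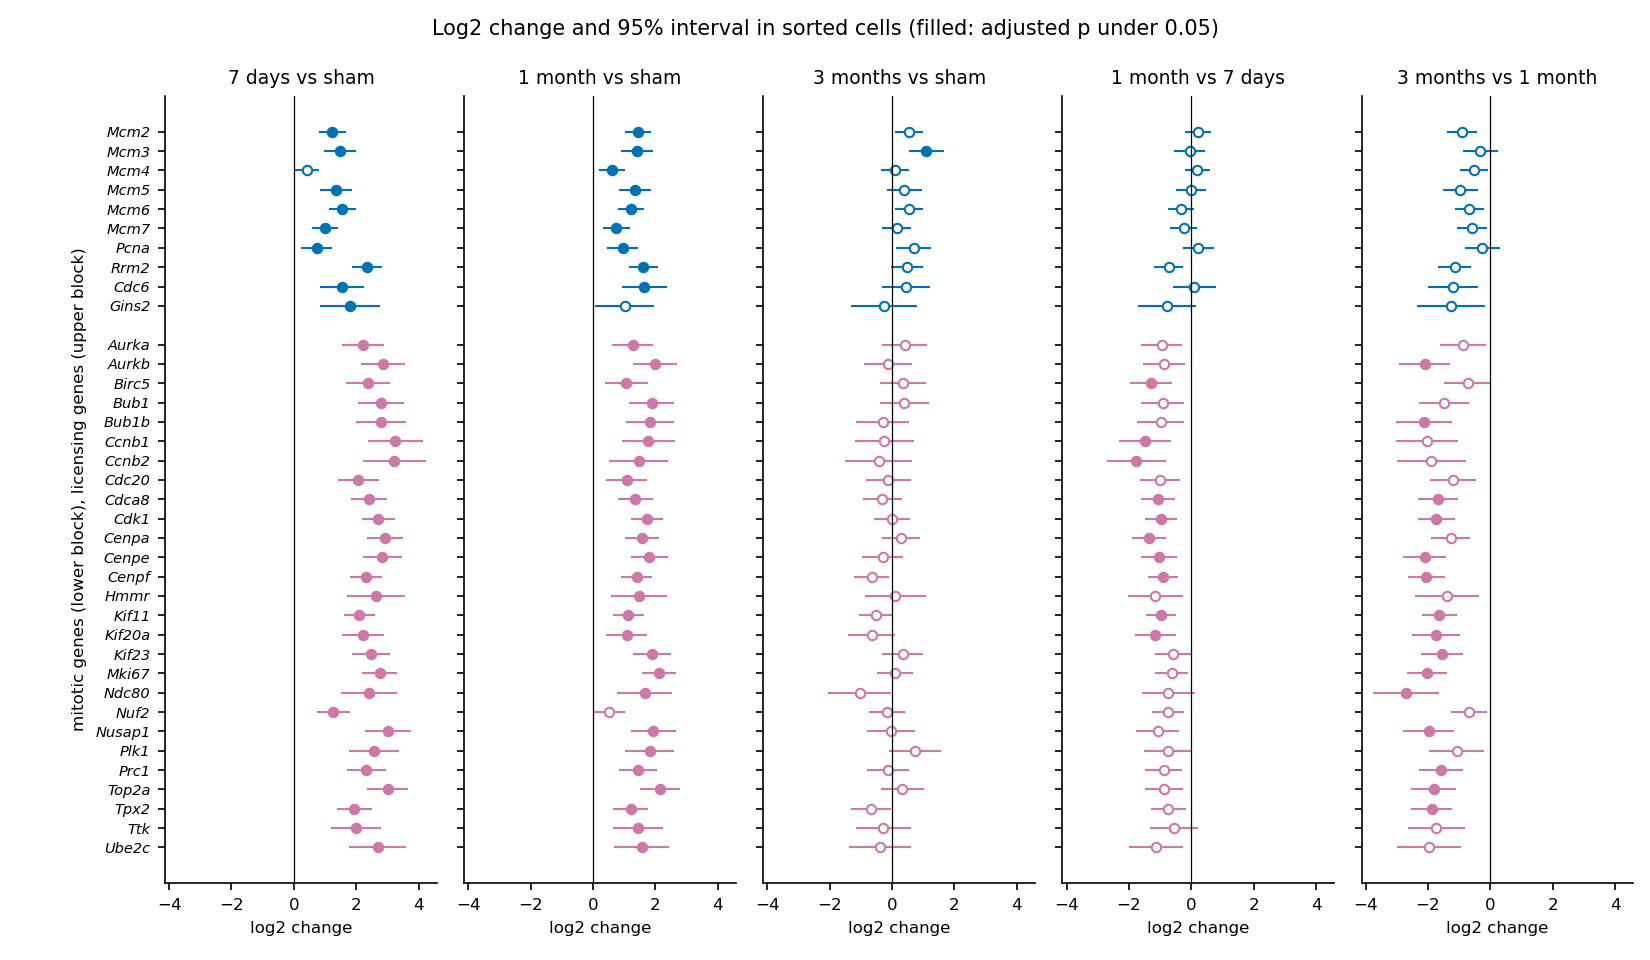
Log2 change with its 95% interval for the 10 replication genes (upper block, blue) and the 27 mitotic genes (lower block, pink) in 5 comparisons of sorted cells. Filled points have an adjusted p under 0.05. Between 1 month and 7 days the replication genes have a median of -0.03 and the mitotic genes of -0.96.

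The summed level of the 10 replication genes was 370, 281 and 373 CPM in sham, 693, 730 and 840 CPM at 7 days, 798, 726 and 654 CPM at 1 month and 474 and 495 CPM at 3 months. The summed level of the 27 mitotic genes was 529, 332 and 321 CPM in sham, 2371, 2293 and 2102 CPM at 7 days, 1243, 1191 and 1156 CPM at 1 month and 416 and 321 CPM at 3 months. The ratio of the first sum to the second was 0.699, 0.847 and 1.16 in sham, 0.292, 0.319 and 0.3998 at 7 days, 0.642, 0.609 and 0.566 at 1 month and 1.14 and 1.55 at 3 months. It was thus lowest at 7 days, and its 1-month libraries lay between those of 7 days and sham without overlap. The sums are led by the most abundant genes, Pcna among them, which contributed 157.8 and 157.1 CPM of the 3-month sums.

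**Figure D3:**
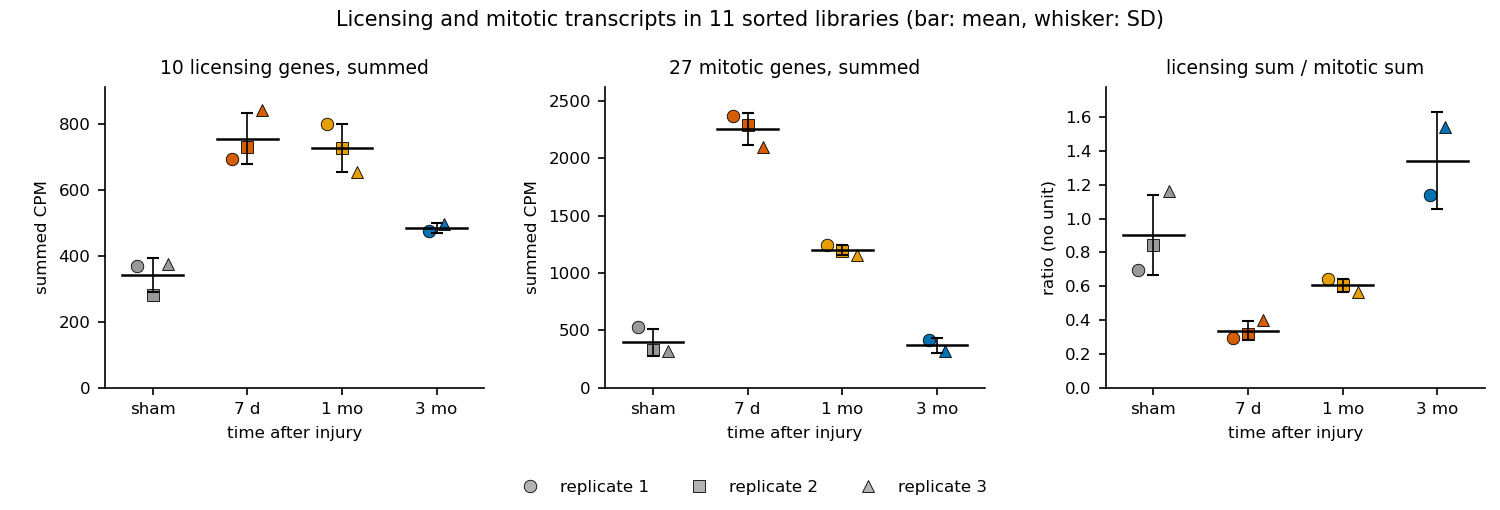
Summed CPM of the 10 replication genes (left) and the 27 mitotic genes (middle) and the ratio of the sums (right) in the 11 sorted libraries, with sham at the left of the time axis. Points are libraries, bars means and whiskers SD. The left sums of 7 days and 1 month overlap, at 693 to 840 and 654 to 798 CPM, and the middle ones do not.

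By 3 months all 10 replication genes had a lower mean than at 1 month. The log2 change was -1.27 ± 0.50 for Gins2, -1.20 ± 0.36 for Cdc6, -1.14 ± 0.24 for Rrm2, -0.96 ± 0.25 for Mcm5, -0.91 ± 0.21 for Mcm2, -0.67 ± 0.21 for Mcm6, -0.60 ± 0.21 for Mcm7, -0.52 ± 0.20 for Mcm4, -0.32 ± 0.25 for Mcm3 and -0.26 ± 0.25 for Pcna. The median was -0.79, against 0.00 over all genes tested. In 9 of the 10 genes, all but Mcm3, both 3-month libraries were below all 3 of 1 month, as they were in 16.6% of all genes tested. None of the 10 was called, where 0.387% of all genes were called in either direction, and the smallest adjusted p was 0.0517 for Rrm2 (edgeR). An unadjusted p under 0.05 was found for 8 of the 10 and for 2859 of all 24286 genes, and DESeq2 called 3 of the 10 and 649 of all genes. A fit without a filter called 3, a fit of these 2 groups alone called 6, and a fit with replicate number as a block called 1, Rrm2. Of the 27 mitotic genes 15 were lower at 3 months than at 1 month, against 0.284% of all genes lower, with a median of -1.73 (27 of 27 below 0). That count too fell when 1 library was left out, to between 0 and 8. Against sham the mitotic median at 3 months was -0.14 with 0 called by edgeR (3 of 27 and 6087 of all 24286 genes at an unadjusted p under 0.05) and 0 by DESeq2, while that of the replication genes was 0.47.

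Markers of other cell types differed between the same 2 times. The summed level of the 6 oligodendrocyte precursor markers was 5083 and 6525 CPM at 3 months, against 7854 to 8268 CPM at 1 month, and 6 of 6 had a log2 change below 0 (median -0.43). All 8 microglia and macrophage markers, 5 of 5 endothelial and 5 of 5 oligodendrocyte markers had a change above 0 (medians 1.083, 1.06 and 0.80). None of these markers was called by edgeR, although 2 of the precursor, 6 of the microglia and macrophage, 4 of the endothelial and 0 of the oligodendrocyte markers had an unadjusted p under 0.05. DESeq2 called 1 precursor marker lower and 1 endothelial marker higher. Their part in the lower level of the 10 genes was not tested.

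In the other lists, genes called lower at 3 months than at 1 month were 0 of 11 origin, 0 of 16 firing, 0 of 20 polymerase and 2 of 10 nucleotide supply genes. Also called lower were 2 of 7 chromatin genes, 1 of 15 drivers and 0 of 15 brakes, where the share of all genes was 0.284%. Log2 changes were below 0 in 16 of 16 firing genes (median -0.64), 7 of 7 chromatin genes (-0.96) and 8 of 10 nucleotide supply genes (-0.51). The same held for 8 of 11 origin genes (-0.14), 15 of 20 polymerase genes (-0.18), 12 of 15 drivers (-0.47) and 10 of 15 brakes (-0.22). Uhrf1, which passes DNA methylation to the new strand, changed by -1.79 ± 0.28, Hells, a chromatin remodeller, by -1.78 ± 0.32, Ccna2 by -1.76 ± 0.31 and Rrm1 by -1.07 ± 0.19 on the log2 scale. Rrm1 averaged 60.1 ± 0.528 CPM at 3 months (n = 2) and 126.6 ± 16.8 CPM at 1 month (n = 3), and its partner Rrm2 25.0 ± 1.29 and 55.2 ± 7.79 CPM.

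Over the 11 sorted libraries the log2 CPM of the 10 genes varied together. The 45 pairs had Pearson correlations of 0.46 to 0.965 with a median of 0.816. With the group means removed the median was 0.314 and the range -0.662 to 0.827, so most of the likeness was between groups. These libraries share their groups and the same totals, and the correlations are given as a description. The genes most like the mean of the 10, by the same correlation over 11 libraries, were Iqgap3 (0.98), AI506816 (0.978), Mex3a (0.9749), Asf1b (0.974), Rbl1 (0.972), Lmnb1 (0.968), Usp1 (0.967), Lamc1 (0.964), Fignl1 (0.963) and Pole (0.961). Of these 10, Asf1b, Rbl1 and Pole were on the lists of S phase and G1 to S genes used here, and none was on the mitotic list.

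Whole cord held far less of this RNA. At 1 month the mean CPM of the 9 genes measured in both was 3.17 (Mcm7) to 8.83 (Rrm2) times as high in sorted cells as in tissue, with a median of 4.70, and at 3 months it was 1.97 (Mcm7) to 4.18 (Mcm3) times as high, with a median of 3.03. The tables were normalized separately and the mice differed in genotype, so no test was made. Cdc6 had 15.6 and 1.79 mean CPM in sorted cells and tissue at 1 month, a ratio of 8.76.

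In tissue, 0 of the 9 genes differed between 3 months and 1 month, where 14.7% of the 19652 genes tested were called in either direction (edgeR). At an unadjusted p under 0.05 in that test were 0 of the 9 and 6159 of all genes, and DESeq2 called 0 of the 9. The median log2 change was -0.01, against 0.00 over all genes. Mcm2 had 17.2, 8.83 and 12.8 CPM at 3 months, against 12.3, 12.8 and 12.2 CPM at 1 month. Mcm5 had 15.7, 5.98 and 8.97 CPM at 3 months, against 10.5, 10.8 and 9.56 CPM at 1 month. Rrm2 had 15.4, 4.34 and 11.3 CPM at 3 months, against 5.70, 6.84 and 6.21 CPM at 1 month, and Cdc6 had 3.78, 1.204 and 2.29 against 1.32, 1.78 and 2.25 CPM. In all 4 the 1-month libraries lay close together inside the 3-month range. The same 2 libraries made that range: replicate 2 of 3 months was the lowest of the 6 in 9 of 9 genes, and replicate 1 of 3 months was the highest in 6 of 9.

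**Figure D4:**
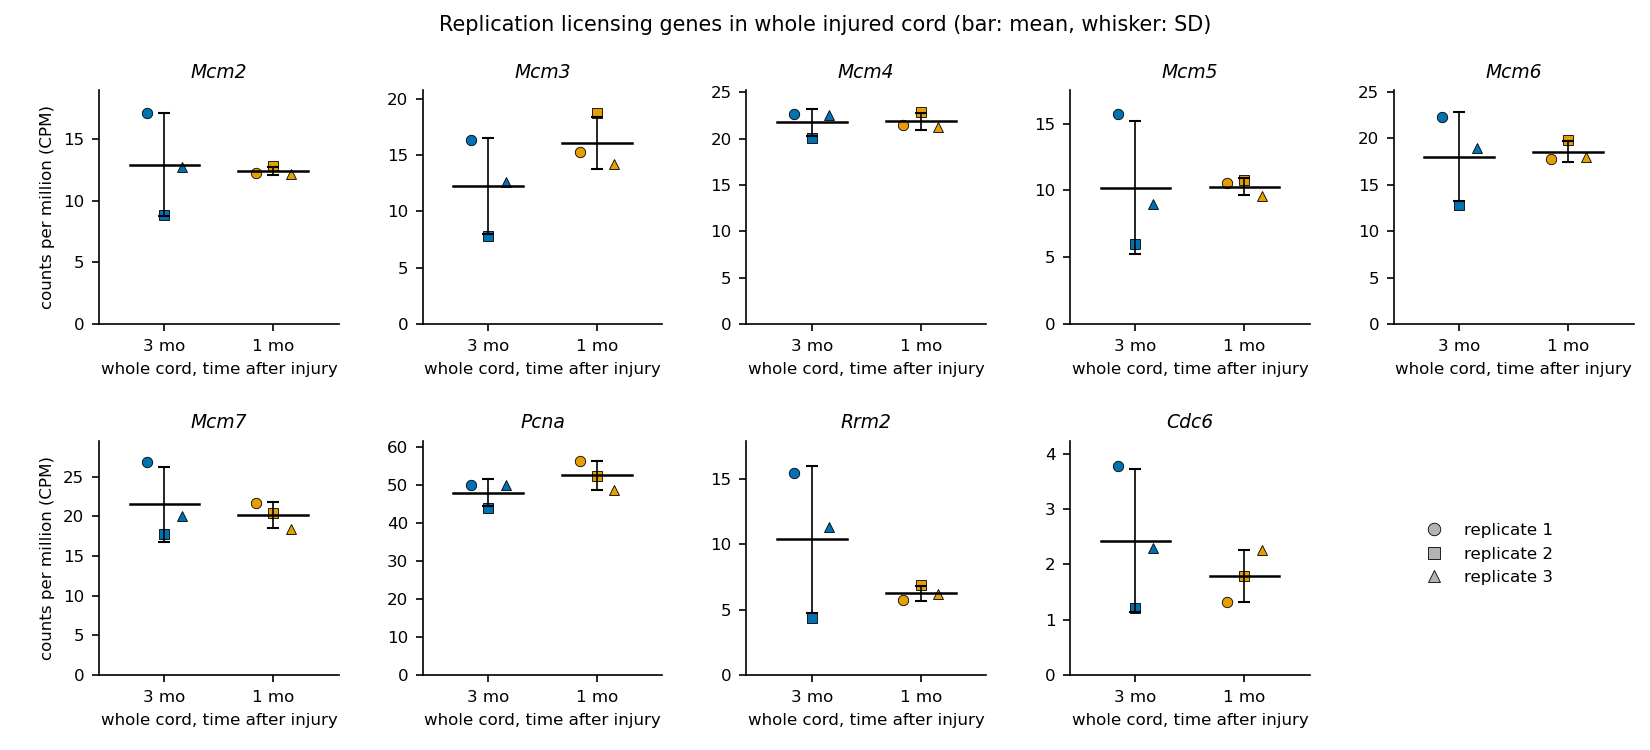
Level of the 9 genes measured in whole injured cord, in CPM, at 3 months (left) and 1 month (right). Points are libraries, bars means and whiskers SD; each panel has its own axis from 0. The 3-month libraries reach below and above those of 1 month except for Mcm3, Mcm4 and Pcna, where a 1-month library is highest. Replicate 2 of 3 months lies lowest in all 9 panels.

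The log2 change in tissue was 0.73 ± 0.40 for Rrm2 (95% interval -0.21 to 1.66, adjusted p = 0.263), 0.43 ± 0.42 for Cdc6, 0.09 ± 0.16 for Mcm7 and 0.05 ± 0.22 for Mcm2. It was -0.39 ± 0.25 for Mcm3 (95% interval -0.98 to 0.19, adjusted p = 0.325), -0.13 ± 0.08 for Pcna, -0.04 ± 0.19 for Mcm6, and -0.01 for Mcm4 and Mcm5, with SE of 0.08 and 0.31. Single libraries decided 2 of these values. Without replicate 2 of 3 months Rrm2 was higher at 3 months (log2 change 1.11, adjusted p = 0.0116), and without replicate 1 of 3 months Mcm3 was lower (log2 change -0.66, adjusted p = 0.0422). Replicate 1 of 3 months also had the most neutrophil RNA, with 1586 CPM over 5 markers, against 183 and 172 CPM in the other 3-month libraries and 28.1 to 57.3 CPM at 1 month, and the summed mitotic level was 228, 83.3 and 154 CPM at 3 months and 111, 131 and 109 CPM at 1 month. Markers of several cell types differed between the 2 times. Lower at 3 months were 7 of 8 microglia and macrophage, 2 of 6 oligodendrocyte precursor, 2 of 8 astrocyte and 1 of 5 oligodendrocyte markers. Higher were 3 of 5 neutrophil, 2 of 5 lymphocyte and 1 of 4 neuron markers, against 6.69% of all genes. Microglia and macrophage RNA was 1506 to 2308 CPM at 3 months and 3631 to 4916 CPM at 1 month. The part of neutrophil precursors or other cells in the values of the 9 genes was not tested. Of the other lists, 3 of 15 drivers and 3 of 15 brakes of G1 to S were lower, where 8.01% of all genes were lower, among them Ccnd1 (cyclin D1) at -0.43 ± 0.07 and Cdkn1a at -0.37 ± 0.06. Of the nucleotide supply genes Dck, a salvage kinase, was higher at 0.47 ± 0.08 and Dctpp1, a nucleotide pyrophosphatase, was lower at -0.53 ± 0.13.

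In cultured astrocytes the study asked what loss of Zeb2os or of Zeb2 does. In libraries labelled Zeb2os knockdown, 0 of the 10 replication genes were called against control, where 0.188% of the 20741 genes tested were called (edgeR; 0 of 10 at an unadjusted p under 0.05, and 0 by DESeq2). The median log2 change was -0.19, against -0.01 over all genes tested, with 8 of 10 below 0. Mcm6 had 100.3 and 98.3 CPM in knockdown, against 129.4 and 123.2 CPM in control. Mcm3 had 54.6 and 54.7 CPM in knockdown, against 73.6 and 67.5 CPM in control, and Mcm2 had 45.5 and 59.3 against 60.4 and 77.6 CPM. For these 3 genes both knockdown libraries lay below both controls, as they did for Mcm5 and Mcm7, whereas for Mcm4 both lay above. The groups did not overlap in 6 of the 10 genes and in 44.8% of all genes tested. The log2 change was -0.35 ± 0.20 for Mcm6 (adjusted p = 0.559), -0.37 ± 0.20 for Mcm3 (adjusted p = 0.518) and -0.40 ± 0.23 for Mcm2 (95% interval -0.91 to 0.12, adjusted p = 0.552). Without control replicate 1, which left a single control library, the log2 change of Mcm2 was -0.56. Rrm2, Pcna, Cdc6 and Gins2 overlapped between the groups, with log2 changes of -0.20 ± 0.22, -0.13 ± 0.23, -0.10 ± 0.23 and 0.03 ± 0.21.

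The mitotic genes in the same libraries had a median log2 change of -0.63, with summed levels of 1026 and 1038 CPM in knockdown, against 1475 and 1501 CPM in control. None was called by edgeR, and 18 of 27 had an unadjusted p under 0.05 in its test, against 2424 of all 20741 genes. DESeq2 called 7 of the 27 and 553 of all genes. The ratio of summed replication genes to summed mitotic genes was 0.689 and 0.756 in knockdown, against 0.588 and 0.562 in control. The astrocyte marker sum was 642 and 670 CPM in knockdown, against 1247 and 1315 CPM in control, and Lars2 took 25650 CPM of knockdown replicate 1, against 597 to 1660 CPM in the other 3 libraries. Fibroblast and mural RNA, summed over 6 markers, was 11530 to 11560 CPM in knockdown and 9145 to 9820 CPM in control, above the astrocyte sum in every library. The part of any of these in the values above was not tested.

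In the Zeb2 set the pair of knockdown libraries differed more from each other, in each of the 10 genes, than the group means did. None of the 10 replication genes was called, nor was any of the 17609 genes tested (0% called by edgeR; 0 of the 10 and 683 of all genes at an unadjusted p under 0.05; DESeq2 called 0 of the 10 and 32 of all genes). Rrm2 had 20.3 and 101.8 CPM in knockdown, against 74.2 and 65.2 CPM in control. Gins2 had 2.65 and 11.9 CPM in knockdown, against 13.4 and 10.9 CPM in control, and Mcm5 had 8.71 and 30.6 against 26.8 and 17.6 CPM. In all 10 genes knockdown replicate 2 was above knockdown replicate 1, and in 8 of them both controls lay between. The summed level of the 10 was 224 and 498 CPM in knockdown, against 381 and 368 CPM in control, and that of the 27 mitotic genes 175 and 618 against 572 and 417 CPM. Oligodendrocyte precursor RNA differed between the same 2 libraries, at 142 and 470 CPM in knockdown replicates 1 and 2, against 451 and 496 CPM in control. Fibroblast and mural RNA, over 6 markers, was 4980 to 6461 CPM in knockdown and 7589 to 14180 CPM in control. Astrocyte RNA, over 8 markers, was 1165 to 1221 CPM in knockdown and 871 to 1359 CPM in control. All 6 fibroblast and mural markers had a log2 change below 0 (median -0.84), and none was called by edgeR. The part of these cell types was not tested.

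The log2 change in the Zeb2 set was -0.75 ± 0.70 for Gins2 (95% interval -2.46 to 0.96), -0.19 ± 0.70 for Rrm2 (-1.91 to 1.53) and -0.18 ± 0.61 for Mcm5 (-1.69 to 1.33). For Mcm2, Mcm3, Mcm4, Mcm6, Mcm7, Pcna and Cdc6 it was 0.08 ± 0.34, -0.17 ± 0.37, 0.08 ± 0.31, -0.02 ± 0.47, 0.04 ± 0.37, 0.00 ± 0.40 and -0.18 ± 0.53, with adjusted p of 0.999 or 1.0. The median was -0.09, against 0.03 over all genes tested. Without knockdown replicate 2, which left a single knockdown library, the log2 change was -1.79 for Rrm2 and -2.21 for Gins2.

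**Figure D5:**
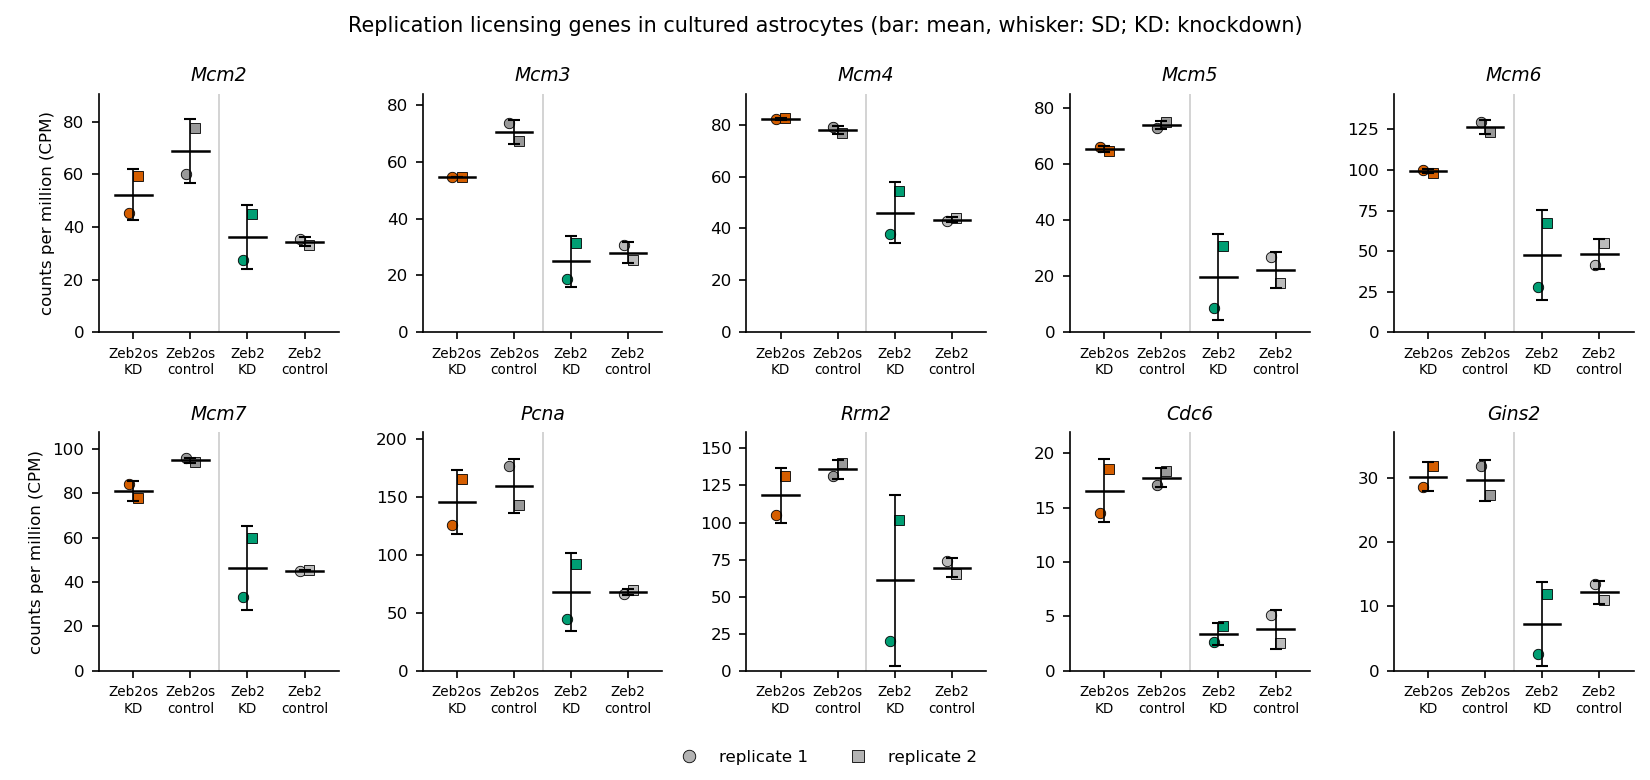
Level of each gene in CPM in the 8 culture libraries, with knockdown (KD) left of its control in each set. Points are libraries, bars means and whiskers SD; each panel has its own axis from 0. In the Zeb2 set knockdown replicate 2 lies above replicate 1 in all 10 panels.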

How the data were processed

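RNA-seq read counts per gene were deposited by the authors in 4 tables, unnormalized, per the file headers and the whole-number values. The submitters' processing notes name FastQC, TopHat2 2.1.0, Cufflinks 2.2.1, DESeq2 and mm10, with no role or order. The counting program and annotation are not given in the sources used here, nor is the use of strand in counting, although the library kit (per the labels' protocols) was a directional one. Rows without an Ensembl identifier, which held 0.395% to 0.665% of the counts, stayed in the totals, the tests and the shares of all genes. Every named or listed gene was read from its Ensembl row.

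Each table was tested in edgeR 4.0.16 (R 4.3.3) by the quasi-likelihood test, with TMM scaling, a minimum count of 10 in filterByExpr and Benjamini-Hochberg adjustment over all genes tested, at a threshold of 0.05. The sorted groups shared 1 fit. Genes tested numbered 24286 (sorted), 19652 (tissue), 20741 (Zeb2os) and 17609 (Zeb2). CPM values use TMM-scaled totals, and RPKM values divide them by GENCODE exon length. Alternatives were DESeq2 1.42.0, its size factors in edgeR, no filter, a replicate block, the 2 groups fitted by themselves, and leaving out each library. Tested on simulated data, 8-fold changes were recovered for 81.2% of changed genes in the comparison of 7 days with sham, and 2-fold changes for 25%, over 24286 genes. For Zeb2 knockdown the shares were 86.6% and 3.2% over 17609 genes. Each simulated set held 200 changed genes, which eases the adjustment, so these shares need not hold where few genes change. In the measured Zeb2 set, Zeb2 itself changed by -2.83 ± 0.33 on the log2 scale and was not called (edgeR, adjusted p = 0.999).

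The 10 genes and all gene lists were chosen with earlier results of these data known. Named genes were the 10, up to 3 called genes with the largest log2 change in each other list and comparison, and the 10 genes with the highest Pearson correlation to the mean log2 CPM of the 10 (prior count 2). Promoters are from RefSeq. Python 3.11.15, pandas 2.3.3 and matplotlib 3.10.9 were used. One gene called in a related list is not reported here.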

Additional observations from a re-analysis of the deposited data

How the results depend on the processing

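Of 780 values of single genes under alternatives, 693 kept their direction and their side of the threshold, 13 lost a call, 29 gained one and 45 changed sign, none of the last from a called value. Where no cause is named below, the cause was not tested. The number of the 10 replication genes called at 3 months against sham was 1, with 4 by DESeq2, 2 without a filter, 0 with the 2 groups fitted by themselves and 0 to 4 leaving out 1 library. Between 1 month and 7 days it was 0, with 1 by DESeq2, 1 without a filter and 1 with the 2 groups by themselves. Between 3 months and 1 month in sorted cells it was 0, with 3 by DESeq2, 3 without a filter and 6 with the 2 groups by themselves. Leaving out 1 library gave 8 to 9 at 7 days and 6 to 9 at 1 month against sham, and 0 to 1 in tissue. In the culture sets it left a single library in a group, so no count is given.

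The replicate numbers were not taken to pair the samples. Same-numbered libraries correlated at -0.044 to 0.081 over 15 sorted pairs, -0.274 to -0.011 in tissue and -0.026 for Zeb2os. In the Zeb2 set the correlation was 0.39, and with the block the mitotic median was -0.54, against -0.20 without it. Group means were removed first, so with 2 libraries per group both pairs of a culture set must give the same value. With the replicate block, 1 of the 10 genes was called between 3 months and 1 month in sorted cells, and in the Zeb2 set Mcm7 was at -0.0176 and Pcna at -0.0907 on the log2 scale, against values just above 0 without it.

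Other changes of sign were in values that were not called. Mcm5 between 1 month and 7 days was 0.0149 with the 2 groups by themselves. In tissue, Mcm4 was 0.0013 with DESeq2 size factors, 9e-04 with DESeq2 and 0.01 without a filter, and Mcm5 was 0.002, 0.0022 and 0.007. Leaving out 1 library, the log2 change at 3 months against sham was -0.0235 to 0.1981 for Mcm4 and -1.145 to 0.2758 for Gins2. Between 1 month and 7 days it was -0.1272 to 0.0787 for Mcm3 and -0.0978 to 0.1321 for Mcm5. In tissue it was -0.2069 to 0.2807 for Mcm2, -0.0398 to 0.0585 for Mcm4, -0.464 to 0.2788 for Mcm5, -0.2271 to 0.1652 for Mcm6, -0.0986 to 0.2265 for Mcm7 and -0.0581 to 0.7692 for Cdc6. For Zeb2os it was -0.3539 to 0.0455 for Pcna, -0.305 to 0.0607 for Cdc6 and -0.0668 to 0.146 for Gins2. For Zeb2 it was -0.3205 to 0.3949 for Mcm2, -0.5963 to 0.1707 for Mcm3, -0.21 to 0.3337 for Mcm4, -1.3556 to 0.475 for Mcm5, -0.7999 to 0.4899 for Mcm6, -0.4515 to 0.4181 for Mcm7, -0.6228 to 0.4421 for Pcna, -1.7866 to 0.5564 for Rrm2 and -0.5892 to 0.4019 for Cdc6.

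Counts over all genes moved more. They were 633 between 1 month and 7 days (1511 by DESeq2, 1406 without a filter, 3560 with the 2 groups by themselves, 122 to 218 leaving out 1 library), and 94 between 3 months and 1 month in sorted cells (649, 749, 1277 and 7 to 52). At 3 months against sham they were 2844 (885 with the 2 groups by themselves, 1189 to 3540 leaving out 1 library), at 7 days 4440 (2867 to 5504) and at 1 month 2927 (1727 to 3471). In tissue they were 2889 (506 with the replicate block, 305 to 5980), for Zeb2os 39 (553 by DESeq2, 625 without a filter, 554 with the block) and for Zeb2 0 (32, 142 and 80).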
